A study of Rattus norvegicus with 12 samples.

Results

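The genes described here mark the endothelial cells that line blood vessels and carry the receptors through which those cells are kept alive and told to grow. They were Pecam1, Cdh5, Kdr, Flt1, Tek, Tie1, Emcn, Vwf, Eng and Plvap. A probe set was taken where the platform annotation named 1 of these genes and no other gene, which gave 12 of the 31099 probe sets on the array, for 9 of the 10 genes. No such probe set named Cdh5, which encodes VE-cadherin, and it was not analysed here. Kdr had 2 probe sets, Flt1 had 3, and each of the other 7 genes had 1.

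The arrays measured renal cortex of 12 transplanted kidneys from male rats, 1 array per graft. In 6 grafts the kidney was wild type and in 6 it was ABCC2-/-, that is, deficient in MRP2, the apical export pump for organic anions of the proximal tubule. All 12 recipients were wild type, so the blood that ran through the vessels of both kinds of graft came from animals with the pump. The strain, the age, the time after transplantation and whether each graft had its own donor are not given in the sources used here, and the p-values therefore cover only how these grafts spread. The series names the consequences for grafts of losing the pump in the kidney alone as its subject, and the question asked of the endothelial genes was whether their signal differed between ABCC2-/- and wild-type grafts.

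The kidney cortex holds several kinds of endothelium, among them the fenestrated capillaries of the glomerulus, the fenestrated capillaries around the tubules, and the continuous lining of arteries and arterioles. VEGF-A, which podocytes and tubule cells release, acts on these cells through KDR (VEGF receptor 2), which carries most of the growth and survival signal, while FLT1 (VEGF receptor 1) binds the same ligand tightly and signals weakly. TEK (TIE2) is the receptor of the angiopoietins and keeps vessels quiescent, and TIE1 is its partner without an established ligand of its own. In bulk tissue fewer endothelial cells and less RNA per cell cannot be told apart.

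Signals are the deposited probe set values, on a linear scale that was set for each array. Different probe sets bind their targets unequally, so levels were compared between arrays and never between genes. A difference is the mean log2 signal of ABCC2-/- grafts minus that of wild-type grafts, with values under a floor of 0.0694 raised to it, and with the standard error (SE) of a limma fit to the 18625 probe sets above a level filter. A probe set was called where its p, adjusted by the Benjamini-Hochberg method over all of these, was under 0.05. The labels were checked on Abcc2, the gene of the pump, whose signal lay between 0.787 and 0.987 in wild-type grafts and between 0.0387 and 0.213 in ABCC2-/- grafts. In limma 4 probe sets were called, 0.0215% of those tested, and 7.98% had an unadjusted p under 0.05.

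The arrays fell into 2 sets that the labels do not name. The control probe set for the middle of Gapdh had signals of 32.9 to 36.1 in 6 arrays (array set 1, wild-type replicates 1, 6 and 9 and ABCC2-/- replicates 5, 9 and 11). It had signals of 41.4 to 54.8 in the other 6 (array set 2, wild-type replicates 4, 7 and 8 and ABCC2-/- replicates 3, 10 and 14). Within set 2 that control lay between 41.4 and 45.8 in wild-type arrays and between 50.3 and 54.8 in ABCC2-/- arrays. The ratio of the 3′ to the 5′ Gapdh control, a measure of how complete the labelled RNA was, lay between 1.28 and 1.36 in the 3 ABCC2-/- arrays of set 2 and between 1.64 and 1.93 in all other arrays. The 3′ to 5′ ratio of the actin control lay between 4.48 and 6.39 in these 3 arrays and between 8.39 and 9.79 in the wild-type arrays of set 2. The median signal of an array was 0.316 to 0.338 in these 3 and 0.294 to 0.307 in the wild-type arrays of set 2. Within set 2 genotype therefore cannot be told apart from these ratios, the Gapdh level or the median signal. A fit with the array set as a block does not remove these differences. Because each set holds 3 grafts of each genotype, the 9 genes were also compared within the sets. What the sets stand for was not tested.

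No endothelial gene was called as different between the genotypes. The brightest probe set of each of the 9 genes lay above the floor, which is a bound set for low values and not a limit of detection, in all 12 arrays. Each of the 9 genes had 1 probe set above the level filter, 0 of these 9 passed in either direction in limma (lowest adjusted p = 0.628), and 0 of 9 had an unadjusted p under 0.05. With the array set as a block 0 of 9 passed and 2 of 9, Tek and Eng, had an unadjusted p under 0.05 in limma, where 19.5% of all tested probe sets did. In 7 of the 9 the mean log2 signal was lower in ABCC2-/- grafts and in 2, Emcn and Vwf, it was higher. Of all tested probe sets 54.6% had a lower mean, or 65.8% with each array centred on its median, under which 8 of the 9 were lower. The median difference of the 9 was -0.097, against -0.023 over all tested probe sets, and the median size of a difference regardless of sign was 0.097 against 0.13. The signals of the 2 genotypes overlapped in all 9 probe sets, where 0.435% of all tested probe sets showed no overlap.

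**Figure D1:**
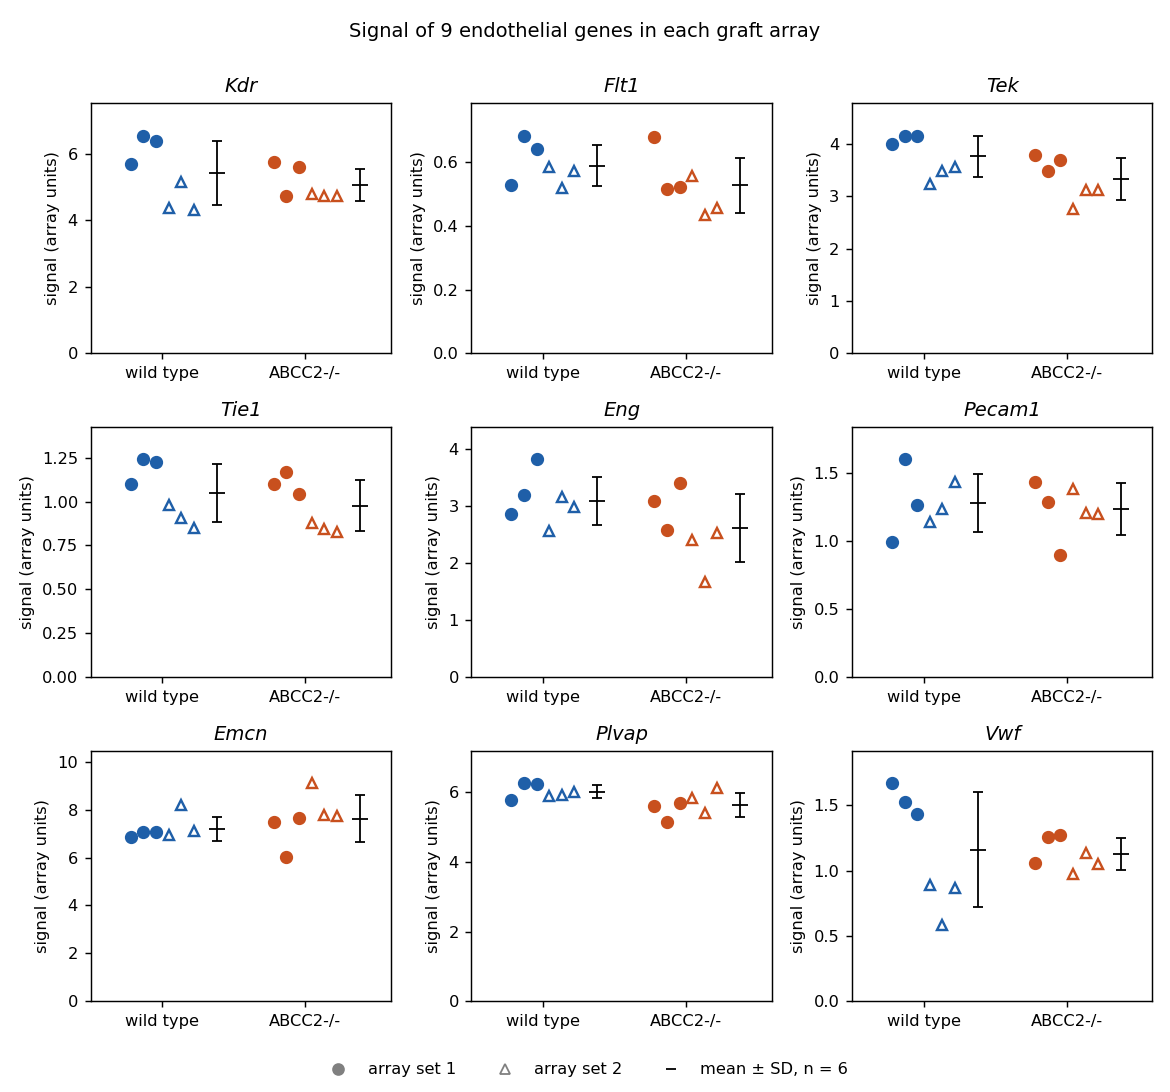
Signal of each endothelial gene in each graft, in the units of the array, with 1 panel per gene, filled circles for array set 1, open triangles for array set 2, and the mean ± SD of 6 arrays beside each genotype. The genotypes overlap in all 9 panels, and for Tie1 every triangle lies below every circle.

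The receptors come first. For Kdr the signal of its bright probe set lay between 4.33 and 6.56 in wild-type grafts (median 5.44) and between 4.73 and 5.77 in ABCC2-/- grafts (median 4.77). The ABCC2-/- values all lay inside the wild-type range. The means were 5.42 ± 0.967 (SD, n = 6) and 5.06 ± 0.487 (SD, n = 6), and the log2 difference was -0.085 (SE 0.11, limma adjusted p = 0.787). The 95% confidence interval of the fold, ABCC2-/- over wild type, was 0.799 to 1.11. In array set 1 the wild-type grafts lay between 5.71 and 6.56 and the ABCC2-/- grafts between 4.73 and 5.77. In array set 2 the ABCC2-/- grafts lay close together, between 4.73 and 4.81, inside the wild-type range of 4.33 to 5.16. The difference was -0.22 in set 1 and 0.046 in set 2. Over 12 arrays it came to -0.0057 once the Gapdh ratio was a term of the model, and to -0.026 without wild-type replicate 6, its highest array. It moved away from 0 to -0.15 without wild-type replicate 8, its lowest array, and to -0.14 with each array centred on its median.

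Flt1 was read by the brightest of its 3 probe sets. The signal had a lowest value of 0.520, a median of 0.578 and a highest value of 0.683 in wild-type grafts, and 0.435, 0.518 and 0.678 in ABCC2-/- grafts. ABCC2-/- replicate 5 was near the top of all arrays, and the other 5 ABCC2-/- grafts lay below the wild-type mean. The log2 difference was -0.17 (SE 0.13, limma adjusted p = 0.669), with a fold interval of 0.738 to 1.07. It was -0.11 in array set 1 and -0.22 in array set 2, and -0.063 over all arrays when the model held the Gapdh ratio.

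The angiopoietin receptor Tek had one of the 2 lowest p among these genes, and its order within each array set was the same. In array set 1 the signal was 4.01, 4.17 and 4.15 in wild-type replicates 1, 6 and 9, and 3.79, 3.49 and 3.70 in ABCC2-/- replicates 5, 9 and 11. In array set 2 it was 3.23, 3.49 and 3.57 in wild-type replicates 4, 7 and 8, and 2.75, 3.12 and 3.13 in ABCC2-/- replicates 3, 10 and 14. Within each set every ABCC2-/- graft lay below every wild-type graft, while over all 12 arrays the genotypes overlapped because set 2 was lower in both. This order in both sets held for 2.57% of all tested probe sets and, among the 9, for Tek. Over 12 arrays the means were 3.77 ± 0.392 (SD, n = 6) and 3.33 ± 0.397 (SD, n = 6). The log2 difference was -0.18 (SE 0.098, limma adjusted p = 0.628), with a fold interval of 0.763 to 1.02. A two-sided exact permutation test gave p = 0.0909. It was -0.17 in set 1 and -0.19 in set 2. With the array set as a block the SE was 0.058 and limma gave an unadjusted p of 0.00677 and an adjusted p of 0.121. In that fit 0.601% of all tested probe sets were called. With that Gapdh ratio in the model the difference of Tek was -0.070 (limma adjusted p = 1.00).

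Tie1, the partner of TEK, separated the array sets without overlap, and the genotypes overlapped. Its signal was 1.10, 1.24 and 1.23 in the wild-type grafts of set 1 and 1.10, 1.17 and 1.04 in the ABCC2-/- grafts of that set. In set 2 it was 0.978, 0.908 and 0.851 in wild-type grafts and 0.876, 0.842 and 0.826 in ABCC2-/- grafts. Every array of set 1 lay above every array of set 2, by 1.30-fold in the mean, as in 7.15% of all tested probe sets. Between the genotypes the log2 difference was -0.10 (SE 0.13, limma adjusted p = 0.768), with a fold interval of 0.772 to 1.12. It was -0.11 in set 1 and -0.10 in set 2.

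Endoglin, encoded by Eng, is the co-receptor that helps endothelial cells respond to BMP9 and TGF-beta. Over 12 arrays its difference was the largest in size among the 9, a place that rests on 1 array: without ABCC2-/- replicate 10 it was -0.15, and that of Tek was -0.16. The signal had a lowest value of 2.55, a median of 3.06 and a highest value of 3.81 in wild-type grafts, against 1.67, 2.55 and 3.41 in ABCC2-/- grafts. The 3 ABCC2-/- grafts of set 2, at 2.39, 1.67 and 2.52, were the 3 lowest arrays, and ABCC2-/- replicate 10 was the lowest of all. The log2 difference was -0.27 (SE 0.14, limma adjusted p = 0.628), with a fold interval of 0.671 to 1.03. By exact permutation, two-sided, p was 0.128. With the array set as a block limma gave an unadjusted p of 0.0320 and an adjusted p of 0.213. The difference was -0.12 in set 1 and -0.41 in set 2, where the test of the change between sets gave a limma adjusted p of 0.511. The low arrays are those with the low Gapdh 3′ to 5′ ratio, and with that ratio as a covariate the difference was -0.071, but the part of the ratio in the result was not tested.

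**Figure D2:**
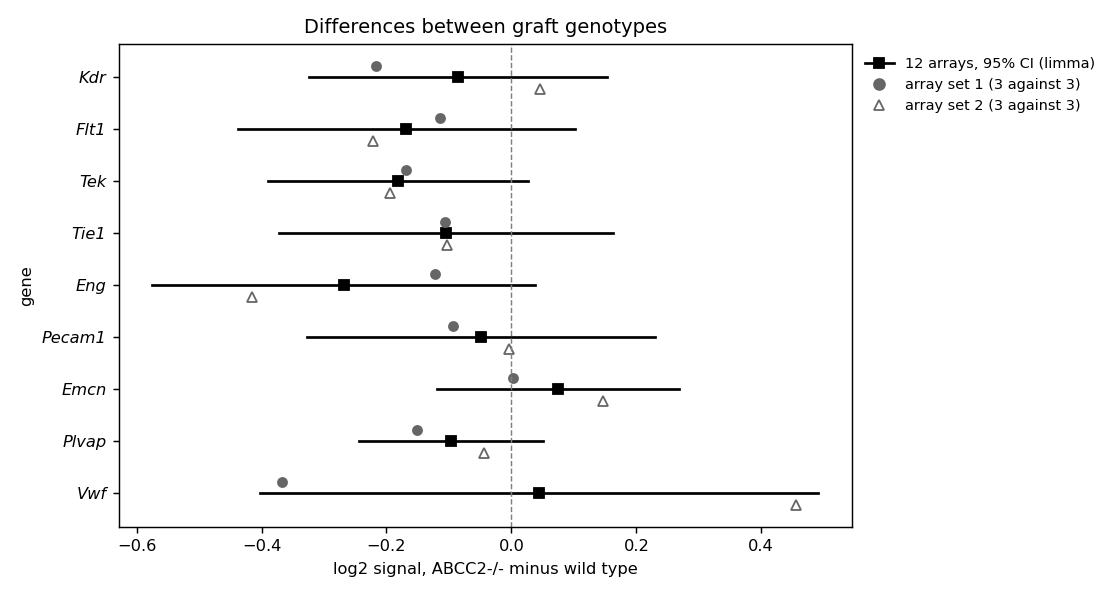
Difference in log2 signal, ABCC2-/- minus wild type, for each gene over 12 arrays with its 95% confidence interval from limma (squares and lines), and within array set 1 (circles) and array set 2 (triangles), each of 3 against 3 arrays. All 9 intervals include 0, and for Vwf the sets lie on opposite sides, at -0.37 and 0.46.

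Pecam1 encodes CD31, an adhesion molecule at the contacts between endothelial cells that leukocytes and platelets carry too. Its signal lay between 0.996 and 1.60 in wild-type grafts (median 1.25) and between 0.899 and 1.43 in ABCC2-/- grafts (median 1.24). The genotypes covered almost the same range, and the lowest arrays were ABCC2-/- replicate 11 and wild-type replicate 1, both of set 1. The log2 difference was -0.048 (SE 0.13, limma adjusted p = 0.898), with a fold interval of 0.797 to 1.17. It was -0.094 in set 1 and -0.0032 in set 2. With the Gapdh ratio in the fit it was larger in size, at -0.12 over all arrays.

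Emcn encodes endomucin, a sialomucin of capillary and venous endothelium. The signal had a lowest value of 6.87, a median of 7.06 and a highest value of 8.20 in wild-type grafts, and 6.01, 7.70 and 9.10 in ABCC2-/- grafts. In 5 of the 6 ABCC2-/- grafts it was above the wild-type mean, and ABCC2-/- replicate 9 was the lowest of all arrays. The log2 difference was 0.075 (SE 0.092, limma adjusted p = 0.771), with a fold interval of 0.921 to 1.20, and 0.00081 with the Gapdh ratio in the fit. Within the sets it was 0.0031 in set 1 and 0.15 in set 2.

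Plvap encodes the protein of the diaphragms that span the fenestrae of capillaries around the tubules, a structure that mature glomerular capillaries mostly lack. Wild-type grafts lay between 5.77 and 6.26 (median 5.98), a narrow range, and ABCC2-/- grafts between 5.15 and 6.12 (median 5.66). In 5 of the 6 ABCC2-/- grafts the log2 signal was below the wild-type mean. In set 1 ABCC2-/- grafts lay between 5.15 and 5.70 and wild-type grafts between 5.77 and 6.26. The share of all tested probe sets without overlap in set 1 alone is not given here. In set 2 the ABCC2-/- range of 5.40 to 6.12 overlapped the wild-type range of 5.91 to 6.03. The log2 difference was -0.097 (SE 0.069, limma unadjusted p = 0.180, adjusted p = 0.654), with a fold interval of 0.844 to 1.04. It was -0.15 in set 1 and -0.044 in set 2, and -0.11 over all arrays with the Gapdh ratio in the fit. The exact two-sided permutation p, which takes the spread of this probe set alone, was 0.0368 without adjustment. The smallest that 6 against 6 arrays can give is 0.00216. How many of all tested probe sets reach such a permutation p is not given here. Plvap was the tightest of the 9 within genotypes, with an SD of 0.070 on the log2 scale.

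Vwf encodes von Willebrand factor, which endothelial cells store and release to tether platelets, and which larger vessels carry more than capillaries. In set 1 its signal was 1.67, 1.52 and 1.44 in wild-type replicates 1, 6 and 9, and 1.06, 1.26 and 1.27 in ABCC2-/- replicates 5, 9 and 11. In set 2 it was 0.887, 0.584 and 0.864 in wild-type replicates 4, 7 and 8, and 0.971, 1.14 and 1.05 in ABCC2-/- replicates 3, 10 and 14. The ABCC2-/- grafts lay below every wild-type graft in set 1 and above every wild-type graft in set 2. Over 12 arrays the log2 difference was 0.044 (SE 0.21, limma adjusted p = 0.947), with a fold interval of 0.756 to 1.41, the widest of the 9. Within the sets it was -0.37 and 0.46. The change between the sets was 0.82 (SE 0.21), with a limma p of 0.00152 and an adjusted p of 0.0547, which missed the threshold. Opposite orders without overlap held in 1.96% of all tested probe sets, and the term for the change between sets was called in 2.54%. The ABCC2-/- arrays of set 2 are those with the low Gapdh and actin ratios, and with the Gapdh ratio in the fit the difference over 12 arrays was 0.16 (limma adjusted p = 1.00). The part of these ratios in the opposite orders was not tested. The signal of wild-type grafts alone ran from 0.584 to 1.67, while ABCC2-/- grafts ran from 0.971 to 1.27.

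The dimmer probe sets of the VEGF receptors gave no second reading of the result. The other Kdr probe set was under the floor in 8 of 12 arrays and at the lowest deposited value of 0.01 in 5. Of its 4 arrays above the floor 1 was wild type and 3 were ABCC2-/-. The second brightest Flt1 probe set had signals of 0.110 to 0.234 in wild-type and 0.107 to 0.243 in ABCC2-/- grafts, and the dimmest had 0.0583 to 0.147 and 0.0621 to 0.208. None of the 3 passed the level filter. In limma without that filter their log2 differences were 0.40 for the Kdr probe set (SE 0.22, adjusted p = 0.717), and -0.15 (adjusted p = 0.870) and 0.20 (adjusted p = 0.816) for the second brightest and the dimmest of Flt1. For both genes the result therefore rests on 1 probe set, and the annotation used here does not say which transcript forms a probe set reads.

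**Figure D3:**
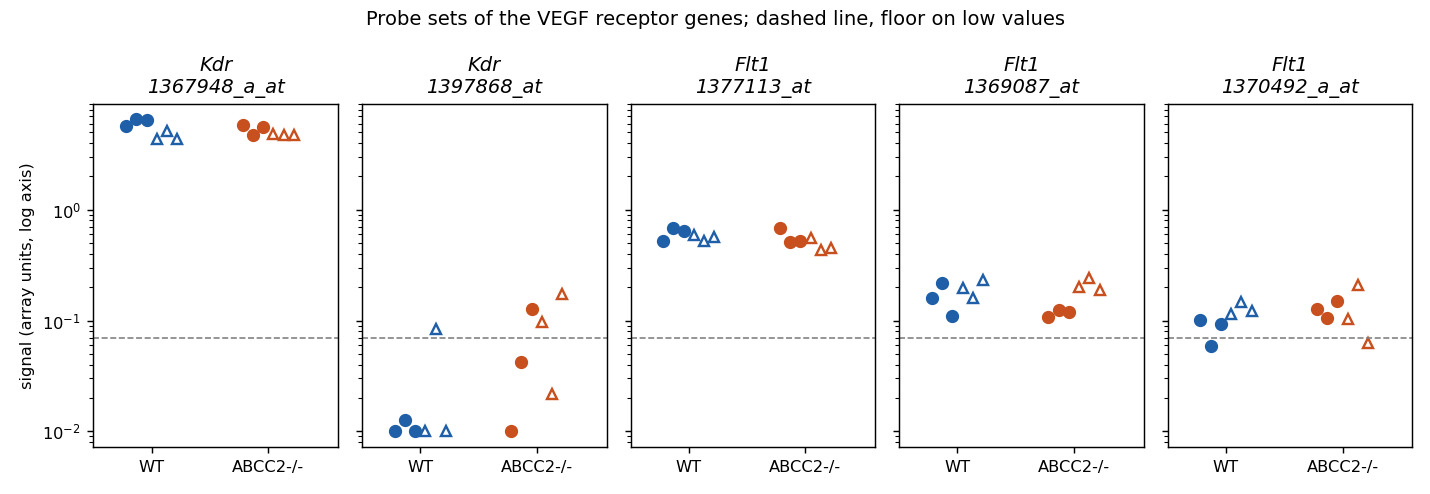
Signal of the 2 Kdr and 3 Flt1 probe sets in each graft on a log axis in the units of the array, with filled circles for array set 1, open triangles for array set 2 and a dashed line at the floor of 0.0694. The brightest probe set of each gene lies above the floor in all 12 arrays, and the other Kdr probe set lies under it in 8.

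Several of the 9 genes went up and down together from array to array. With the genotype means removed, the Pearson correlation of each gene with the mean of the other 8 over the 12 arrays was 0.84 for Kdr, 0.70 for Flt1, 0.62 for Eng and 0.61 for both Tek and Tie1. It was 0.36 for Vwf, 0.28 for Plvap, 0.12 for Pecam1 and -0.21 for Emcn. These values describe 12 arrays that share 2 array sets and are given without a test. Wild-type replicate 6 was the highest array for 6 of the 9 genes, and wild-type replicate 9 was among the 3 highest for 7. ABCC2-/- replicate 10 was among the 3 lowest for 5 of the 9. These arrays were named for their ranks, and the share of all tested probe sets with the same ranks is not given here. Of the 9 genes 6 had a lower mean in array set 2 than in set 1, where 58.1% of all tested probe sets did. The difference of the sets, set 2 minus set 1, was -0.60 for Vwf, -0.38 for Tie1, -0.33 for Eng, -0.30 for Kdr, -0.27 for Tek and -0.19 for Flt1. It was 0.022 for Plvap, 0.046 for Pecam1 and 0.15 for Emcn, and the median of the 9 was -0.27 against -0.062 over all tested probe sets.

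**Figure D4:**
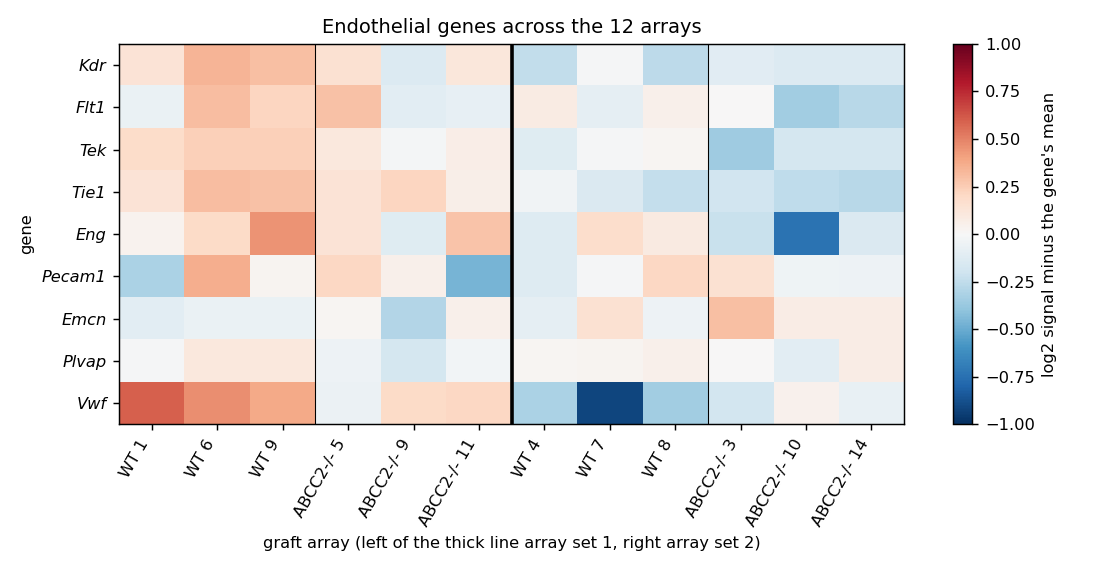
Log2 signal of each gene in each array minus the mean of that gene over 12 arrays, in colour from -1 to 1, with array set 1 left of the thick line and array set 2 right of it. Kdr, Flt1, Tek, Tie1, Eng and Vwf have lower means in set 2, by 0.19 to 0.60 on the log2 scale, and Emcn, Plvap and Pecam1 do not.

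The start regions of the genes that varied most closely together are shown for comparison, as RefSeq gives them for the assembly GRCr8. Of the 10 genes 6 had an entry in the promoter table used here. Each line gives the 250 bases before the start of the gene on its own strand, for Kdr, Flt1, Tie1 and Eng. The capitals mark the letters GGAA, the core that transcription factors of the ETS family bind, on either strand, so that TTCC is its reverse.
Kdr (chr14:32571813-32572062, plus strand): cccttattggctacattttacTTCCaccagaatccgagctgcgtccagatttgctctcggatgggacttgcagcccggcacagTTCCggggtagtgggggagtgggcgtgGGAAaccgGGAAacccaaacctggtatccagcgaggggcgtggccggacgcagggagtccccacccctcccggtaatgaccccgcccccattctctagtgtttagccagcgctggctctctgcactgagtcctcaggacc
Flt1 (chr12:12333180-12333429, plus strand): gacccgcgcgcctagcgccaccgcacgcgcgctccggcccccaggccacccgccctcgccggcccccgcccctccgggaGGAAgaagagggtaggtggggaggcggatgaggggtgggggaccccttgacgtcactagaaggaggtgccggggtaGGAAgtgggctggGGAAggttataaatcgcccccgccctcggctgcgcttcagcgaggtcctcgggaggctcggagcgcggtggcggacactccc
Tie1 (chr5:137304982-137305231, minus strand): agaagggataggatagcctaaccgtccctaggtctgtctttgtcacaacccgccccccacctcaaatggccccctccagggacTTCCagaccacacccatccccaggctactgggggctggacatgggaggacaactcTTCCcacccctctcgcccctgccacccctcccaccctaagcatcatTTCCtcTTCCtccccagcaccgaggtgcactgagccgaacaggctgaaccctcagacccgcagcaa
Eng (chr3:36332029-36332278, plus strand): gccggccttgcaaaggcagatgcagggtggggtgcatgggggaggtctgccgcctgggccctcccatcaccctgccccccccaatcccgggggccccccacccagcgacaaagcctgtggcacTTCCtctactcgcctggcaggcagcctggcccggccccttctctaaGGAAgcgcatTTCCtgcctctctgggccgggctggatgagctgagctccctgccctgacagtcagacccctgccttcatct

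ETS factors such as ERG, FLI1 and ETS1 act in endothelial cells. The core was found 4 times before Kdr, 3 times before Flt1, 4 times before Tie1 and 3 times before Eng. Before Emcn it was found 6 times and before Plvap 4 times, genes whose correlations with the mean of the others were -0.21 and 0.28. All 6 promoters of these genes held the core. It is so short that 93.2% of 33469 rat promoters of the same length hold it, with a median of 3 matches. The longer form AGGAAG, searched on both strands and always overlapping the core, was found in 5 of the 6, which are those of Flt1, Tie1, Eng, Emcn and Plvap, and in 29.5% of all promoters. Kdr had no match to it in this window. A match describes the letters alone.

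The genes closest to the 9 in their pattern over the arrays were on none of the lists used here. By Pearson correlation with the mean standardised profile of the 9, genotype means removed, over 12 arrays and 10630 other genes, the closest were Rcbtb2 (0.97), Lrch3 (0.96), Rbm3 (0.95), Eva1a (0.95) and Xpc (0.94). All 5 had lower means in array set 2, with differences from set 1 of -0.19 to -0.42 on the log2 scale. Rbm3, for a cold-inducible RNA-binding protein, lay between 8.38 and 10.7 in set 1 and between 6.78 and 8.74 in set 2. None of the 5 differed between the genotypes in limma (adjusted p between 0.639 and 0.977).

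The ligands and partners of these receptors were read with a list of their own. In limma 0 of 5 tested genes of the VEGF ligands and other VEGF receptors passed. All 5 had a lower mean in ABCC2-/- grafts, as did 6238 of all 10639 tested genes. The median log2 difference was -0.11 against -0.041 over all tested genes. Vegfa, the main ligand of KDR, averaged 6.23 ± 0.507 (SD, n = 6) in wild-type grafts against 5.74 ± 0.536 (SD, n = 6) in ABCC2-/- grafts, a log2 difference of -0.12 (SE 0.084, limma adjusted p = 0.652). Nrp1, the co-receptor that joins KDR when it binds VEGF-A, had -0.14 (SE 0.10, limma adjusted p = 0.654). Vegfb, a ligand of FLT1, had -0.071, Nrp2 had -0.11 and Vegfc, which acts mainly on lymphatic vessels, had -0.0094. Flt4, Vegfd and Pgf did not pass the level filter. Among the angiopoietins and TIE signalling genes 2 of 5 with a probe set were tested and 0 were called. Ptprb, the phosphatase that restrains TEK, had -0.031 (SE 0.11) and Angpt2, the angiopoietin that destabilizes vessels, had 0.0031 (SE 0.14). Angpt1, its agonist counterpart, and Angpt4 were under the filter.

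Other endothelial genes were not called either. Of 27 tested surface and junction genes 14 had a higher and 13 a lower mean in ABCC2-/- grafts, with a median of 0.0029. Ece1, the enzyme that makes active endothelin, had -0.31 (SE 0.13, limma adjusted p = 0.612) and Ramp2, the partner of the adrenomedullin receptor, 0.21 (SE 0.11, limma adjusted p = 0.628). Of 17 endothelial transcription factors 11 were higher and 6 lower, with a median of 0.045. Gata2 had -0.28 (SE 0.13) and the ETS factor Elk3 -0.16 (SE 0.094). Of 11 tested BMP and TGF-beta receptors and SMADs 5 were higher and 6 lower. Id3, a target of BMP signals, had 0.39 (SE 0.18, limma adjusted p = 0.614) and Smad5 -0.17 (SE 0.096). In the Notch list 4 of 7 were higher, Rbpj, the DNA-binding factor of the pathway, had -0.25 (SE 0.11) and the tip cell ligand Dll4 -0.38 (SE 0.18). In the list of activation and haemostasis 3 of 6 were higher, the adhesion molecule gene Vcam1 had 0.14 (SE 0.15) and Edn1, for endothelin, 0.13 (SE 0.20). In the lymphatic list 3 of 4 were higher, Lyve1, the hyaluronan receptor of lymphatic vessels, had 0.18 (SE 0.14) and Pdpn -0.16 (SE 0.11). No gene of these lists passed in limma, where 2 of the 10639 tested genes did. Ece1, Id3 and Rbpj had an unadjusted p under 0.05, as 813 of the 10639 did, and the other tested genes of these lists did not.

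**Figure D5:**
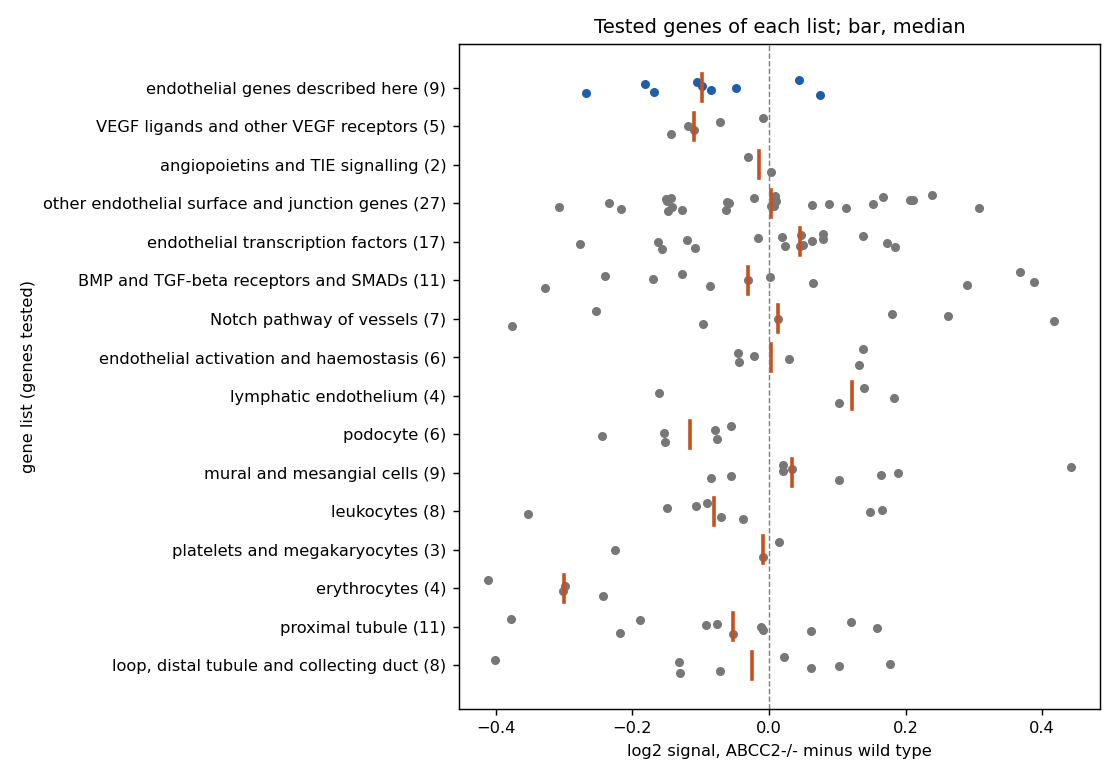
Difference in log2 signal, ABCC2-/- minus wild type, of every tested gene of each list, 1 point per gene, with the median as a bar and the number of genes tested in brackets. The median of the 9 endothelial genes is -0.097, and the points of most lists lie on both sides of 0.

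Markers of the other cells of the cortex gave the setting of these values. Of all 10639 tested genes 6238 had a lower and 4401 a higher mean in ABCC2-/- grafts. The summed signal of the 9 endothelial genes was 26.6 to 32.3 in wild-type and 26.2 to 30.0 in ABCC2-/- grafts, with overlap. Such a sum, here and for the other lists, is carried mostly by the brightest probe sets. For the 9 these were Emcn, Plvap and Kdr, so the sum says little of the dimmer genes. Leukocytes and platelets carry Pecam1 besides endothelium, and platelets also hold von Willebrand factor. Markers of both passed the level filter in part. The 5 platelet and megakaryocyte genes with a probe set summed to 2.02 to 2.36 in wild-type and 1.60 to 2.50 in ABCC2-/- grafts, 3 of 5 passed the filter, Pf4 had a difference of 0.015 and Itgb3 of -0.23. The 12 leukocyte genes summed to 8.23 to 8.72 and 7.41 to 9.05, 6 of 8 tested had a lower mean, Cd3e had -0.35 (SE 0.26) and Csf1r 0.16 (SE 0.10). The leukocyte markers Cd4, Cd8a, Cd79b and Itgam and the platelet markers Gp9 and Ppbp were under the filter. All 6 tested podocyte genes had a lower mean (median -0.12), Nphs1, for nephrin, had -0.24 (SE 0.11, limma adjusted p = 0.614) and Cd2ap -0.15 (SE 0.080). Of 9 mural and mesangial genes 7 had a higher mean, the pericyte gene Rgs5 had 0.44 (SE 0.14, limma adjusted p = 0.606) and Myh11, for smooth muscle myosin, 0.19 (SE 0.097). All 4 tested erythrocyte genes had a lower mean (median -0.30). The hemoglobin gene Hba-a3 had -0.30 (SE 0.27), and Slc4a1, which intercalated cells also express, -0.41 (SE 0.12). Of 11 proximal tubule genes 8 had a lower mean, Slc5a2 had -0.38 (SE 0.11) and Cubn -0.22 (SE 0.10). Of 8 genes of later nephron segments 4 had a lower mean, Slc12a3 had -0.40 (SE 0.17) and Kcnj1 0.18 (SE 0.14). None of these markers passed in limma. Nphs1, Rgs5, Slc4a1, Slc5a2, Cubn and Slc12a3 were those with an unadjusted p under 0.05. The part of these cell types in the endothelial values was not tested.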

How the data were processed

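Renal cortex RNA of 12 kidney grafts, 6 per genotype, was labelled with biotin and hybridised to Affymetrix 3′ expression arrays, per the labels' protocols. The authors deposited 1 intensity value per probe set and array, on a linear scale with a minimum of 0.01 that 3.56% of values held. MAS5 and GCOS are named without versions in the submitters' processing notes. The sources used here do not say what each array was scaled to.

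Groups and replicate numbers came from the sample titles. The 57 control probe sets were left out, values under the pooled 20th percentile (0.0694) were raised to it, log2 was taken, and the probe sets at or above the 40th percentile of the mean were tested. A floor understates the change of dim genes. The arrays were not normalized further. Differences were fitted with limma 3.58.1 under R 4.3.3 (lmFit and eBayes with a mean-variance trend, genotype alone as factor). Single values were also compared by exact permutation over all splits into 6 and 6. Symbols came from the platform annotation (20832 probe sets with 1 symbol, 436 with several, 9780 not listed) and 20764 were updated by Entrez number through the GRCr8 table. In gene lists the probe set of highest mean stood for its gene. On simulated arrays with the spreads of these 18625 probe sets, drawn independently, the fit of this comparison recovered 46.0% of 50 probe sets altered by 1.5-fold, 68.0% of 50 altered by 2-fold and all 50 altered by 3-fold.

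Named genes were all members, Abcc2, the genes of each list that passed (otherwise the 2 of lowest p) and the 5 genes most like the members. Vegfb, Vegfc, Nrp2 and the genes under the filter were named in addition. The members and lists were chosen with earlier results of these data known. The array sets were split at the widest gap in the Gapdh control, and the term for the change between sets was added after seeing the data.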

Additional observations from a re-analysis of the deposited data

Results flagged for a closer look

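The endomucin gene Emcn had 1 wild-type array apart from the other 5. Wild-type replicate 7 had a signal of 8.20, against 6.87 to 7.11 in the others, and its gap was 0.805 of the range of the group on the log2 scale. The dim Kdr probe set had the same array apart, at 0.0840 against 0.01 to 0.0127, and the gap was 1 of the range because the other 5 values were all raised to the floor. These are 2 of 24 groups looked at, and chance gives about 1 in 20.

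The difference between the genotypes in Vwf had opposite directions in the array sets, with every ABCC2-/- graft below every wild-type graft in set 1 and above in set 2. The difference in set 2 exceeded that in set 1 by 0.82 on the log2 scale, and the limma adjusted p of 0.0547 missed the threshold. In set 2 the Gapdh 3′ to 5′ ratio was 1.28 to 1.36 in ABCC2-/- arrays and 1.64 to 1.88 in wild-type arrays, and that of actin was 4.48 to 6.39 and 8.39 to 9.79, so genotype and these ratios cannot be told apart there. With the Gapdh ratio in the fit the difference over 12 arrays was 0.16, against 0.044 without it.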

How the results depend on the processing

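No paired analysis was possible because the genotypes share 1 replicate number, 9. None of the 9 tested endothelial probe sets was called under any of the 11 other settings of floor, filter, normalization, variance model, weights or covariate, nor with any 1 of the 12 arrays left out. Over all tested probe sets the count of calls was 4, 2 with the filter at the 60th percentile, 112 with the array set as a block, and 3 to 5 with 1 array left out. The median difference of the 9 lay between -0.15 and -0.063 under the other settings and between -0.15 and -0.054 with 1 array left out. Directions changed in 8 of 216 values, a count that includes settings which could not change a direction. The other filters, the fit without a trend, the array set as a block and the permutation test leave each difference as it was. So did the other floors, because all 9 probe sets lay above them. Vwf turned to -0.012 with median centring, -0.056 with array weights, and -0.014, -0.13 and -0.021 without wild-type replicates 4, 7 and 8. Pecam1 turned to 0.020 without wild-type replicate 6 and 0.040 without ABCC2-/- replicate 11, and Tie1 to 0.039 with the Gapdh ratio as a covariate. The 3 dimmer probe sets of Kdr and Flt1 were tested only without the level filter, where none was called. Dim probe sets are limited by the floor.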
